A study of Mus musculus with 9 samples.

Results

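The 10 genes described here are classical targets of the transcription factor NRF2 together with glutathione transferases: Nqo1, Gclc, Gclm, Hmox1, Txnrd1, Srxn1, Gsta1, Gsta4, Gstm1 and Gsr. They were chosen by symbol from 54281 genes, and all 10 were found once each in the gene tables and passed the filter on low counts. These genes and the lists used below were chosen with earlier results of these data known. The shares over all genes set beside them are therefore not a test. NRF2, encoded by Nfe2l2, is held at a low level by KEAP1, which hands it to the CUL3 ubiquitin ligase. Under electrophilic or oxidative stress NRF2 escapes, pairs with a small MAF protein (MAFF, MAFG or MAFK) and binds antioxidant response elements, while BACH1 competes for the same elements. The targets make and recycle glutathione, reduce thioredoxin and peroxiredoxins, reduce quinones and degrade haem, and the transferases join glutathione to electrophiles.

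RNA was measured in Comma-1D, a mouse mammary epithelial cell line grown with EGF and insulin. The sort used the surface proteins Sca-1 and EpCAM: B cells were high in Sca-1 and low in EpCAM, L cells were the reverse, and bi cells were high in both. Each population came as control, transduced with an activated MYC oncogene, or transduced with an activated Her2 oncogene. That gives 9 libraries, 1 for each population and arm, without replicates, so a population was compared as 3 libraries against 3 across the arms and an oncogene as 3 against 3 across the populations. The labels give neither the vector, the promoter and the species of the transgenes, nor whether the control cells carried a vector, nor whether the arms were separate cultures. They name 2 kits for RNA isolation without saying which was used for which library, and no batch. The p-values therefore measure only the spread between these libraries.

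Totals ran from 46.9 to 98.9 M reads. Myc stood at 188 to 285 CPM in the 3 MYC libraries and at 68.2 to 169 in the other 6, and Erbb2, which encodes Her2, at 189 to 650.5 in the 3 Her2 libraries and at 53.3 to 88.9 in the other 6. The summed level of 7 luminal markers was 2.22 to 5.81 CPM in B, where up to 2 of them had no reads, against 918 to 2153 in L and 562 to 664 in bi. They include Epcam, which encodes a protein of the sort, so part of this difference comes with the sort. All 7 were higher than in B in every arm, in L and in bi. In bi, Epcam (mean 292 CPM) and Cdh1 (263) made most of the sum, with Krt18 at 65.1. Krt8, Krt19, Elf5 and Kit were at 0.27 to 1.60. The 6 basal markers summed to 1913 to 4122 CPM in B, 1956 to 4111 in L and 4014 to 6549 in bi, so basal transcripts were also present in L and bi. In each arm bi was above B. The 6 genes differed. Means in B, L and bi were 1106, 1314 and 2063 CPM for Krt5, 1204, 773 and 1750 for Krt14 and 227, 382 and 872 for Krt17. They were 593.5, 231 and 439 for Trp63, 129.5, 6.67 and 50.9 for Acta2, and 0.11, 0.17 and 0.23 for Myh11. Since these are bulk libraries, fewer cells of a type and less RNA per cell cannot be told apart. Levels below are CPM, read counts scaled to library size with TMM factors. They depend on transcript length, so genes are compared with each other only by the deposited TPM. Fold changes are log2 values from edgeR's quasi-likelihood test with their standard error (SE), and a gene is said to have risen or fallen only at a Benjamini-Hochberg adjusted p under 0.05 over 23834 tested genes.

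The genes lie apart in the genome, apart from 3 on chromosome 9. In GRCm38 (mm10) with the GENCODE annotation, Gsta4 is at chr9:78182774-78209349 and Gsta1 at chr9:78230656-78242684, both on the plus strand, and Gclc lies before them at chr9:77754535-77794485, plus strand. Gclm (chr3:122245557-122270732, plus strand) and Gstm1 (chr3:108012255-108017973, minus strand) share chromosome 3. Nqo1 (chr8:107388225-107403206, minus strand), Hmox1 (chr8:75093621-75100589, plus strand) and Gsr (chr8:33652523-33698163, plus strand) are on chromosome 8, Txnrd1 is at chr10:82833951-82897712 and Srxn1 at chr2:152105516-152111376, both on the plus strand. All 10 are annotated as protein-coding.

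RefSeq promoter windows of GRCm38.p6, from 250 bases before a transcription start to 50 after it, were found for 6 of the 10 genes: Srxn1, Gstm1, Gclm, Nqo1, Gsta1 and Txnrd1. They were searched on both strands for the core of the antioxidant response element, TGACNNNGC. It was found in 3 of the 6, against 3781 of 27025 genes with a window (14.0%). Among the other lists it was found for 4 of 11 regulators of the pathway, 6 of 19 further NRF2 targets and 4 of 22 further glutathione transferases. It was also found for 2 of 14 genes of the glutathione cycle (14.3%) and 1 of 11 thioredoxin and peroxiredoxin genes (9.09%). The 3 matches are shown because they are the only ones among the members searched. All 3 are on the strand opposite to the gene, so the printed strand, which is that of the gene, shows the reverse complement GCNNNGTCA, and capitals mark the 9 bases of the match.
Gclm, chr3:122245413-122245441, plus strand, match starting 134 bases before the start site: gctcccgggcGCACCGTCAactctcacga
Txnrd1, chr10:82859104-82859132, plus strand, match starting 92 bases before 1 of 3 start sites: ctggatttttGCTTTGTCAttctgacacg
Srxn1, chr2:152105542-152105570, plus strand, match starting 29 bases after the start site: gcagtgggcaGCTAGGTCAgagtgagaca

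The 250 bases before the start site are printed for 3 genes that carry the differences between populations and arms reported below. The Gclm window holds the match, in capitals, and the windows of Nqo1 and Gstm1 hold no match to these letters.
Gclm, chr3:122245307-122245556, plus strand: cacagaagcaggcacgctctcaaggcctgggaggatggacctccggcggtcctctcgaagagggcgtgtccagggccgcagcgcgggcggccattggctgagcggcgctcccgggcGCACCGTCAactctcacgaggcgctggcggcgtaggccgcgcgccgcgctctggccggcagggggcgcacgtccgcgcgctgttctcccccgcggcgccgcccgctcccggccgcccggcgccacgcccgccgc
Nqo1, chr8:107403206-107403455, minus strand: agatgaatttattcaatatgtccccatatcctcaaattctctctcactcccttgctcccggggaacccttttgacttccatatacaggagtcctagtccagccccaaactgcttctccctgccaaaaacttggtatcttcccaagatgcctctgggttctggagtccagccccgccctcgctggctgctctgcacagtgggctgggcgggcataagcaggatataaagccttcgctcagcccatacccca
Gstm1, chr3:108017974-108018223, minus strand: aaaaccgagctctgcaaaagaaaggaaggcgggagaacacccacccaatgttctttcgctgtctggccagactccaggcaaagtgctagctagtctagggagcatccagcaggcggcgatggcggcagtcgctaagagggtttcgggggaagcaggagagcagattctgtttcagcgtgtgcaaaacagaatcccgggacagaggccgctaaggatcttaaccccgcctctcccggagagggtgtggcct
A match describes the letters only. Among the 3 genes with a match, Gclm and Srxn1 fell from B to L and Txnrd1 did not pass the test in any comparison. Nqo1 and Gstm1, without a match in these windows, also fell from B to L.

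Per length, Gsta4 and Gclm were the most abundant members in B. In the B control library the deposited TPM was 160.2 for Gsta4 and 114 for Gclm, followed by 65.8 for Txnrd1, 56.1 for Hmox1, 45.1 for Gsr, 32.8 for Gstm1, 24.8 for Nqo1, 22.7 for Gclc, 21.98 for Srxn1 and 4.50 for Gsta1. In the L control library Gsta4 (86.4), Txnrd1 (71.1) and Gsr (69.6) led, and Gclm and Hmox1 stood at 37.5 and 13.7. The deposited lengths of Gclm were 262 to 382 bases over the libraries, against 1553 for Nqo1. In B control 147 CPM went with 114 TPM for Gclm, and 32.1 CPM with 24.8 TPM for Nqo1. TPM thus did not follow the deposited lengths between these genes, and the part of the lengths in the order of Gclm was not tested. Over the 9 libraries the SD of log2 CPM was largest for Gsta1 (1.65), Gstm1 (1.18), Gclm (1.11) and Hmox1 (1.05) and smallest for Txnrd1 (0.30), Gclc (0.38) and Srxn1 (0.40).

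**Figure D1:**
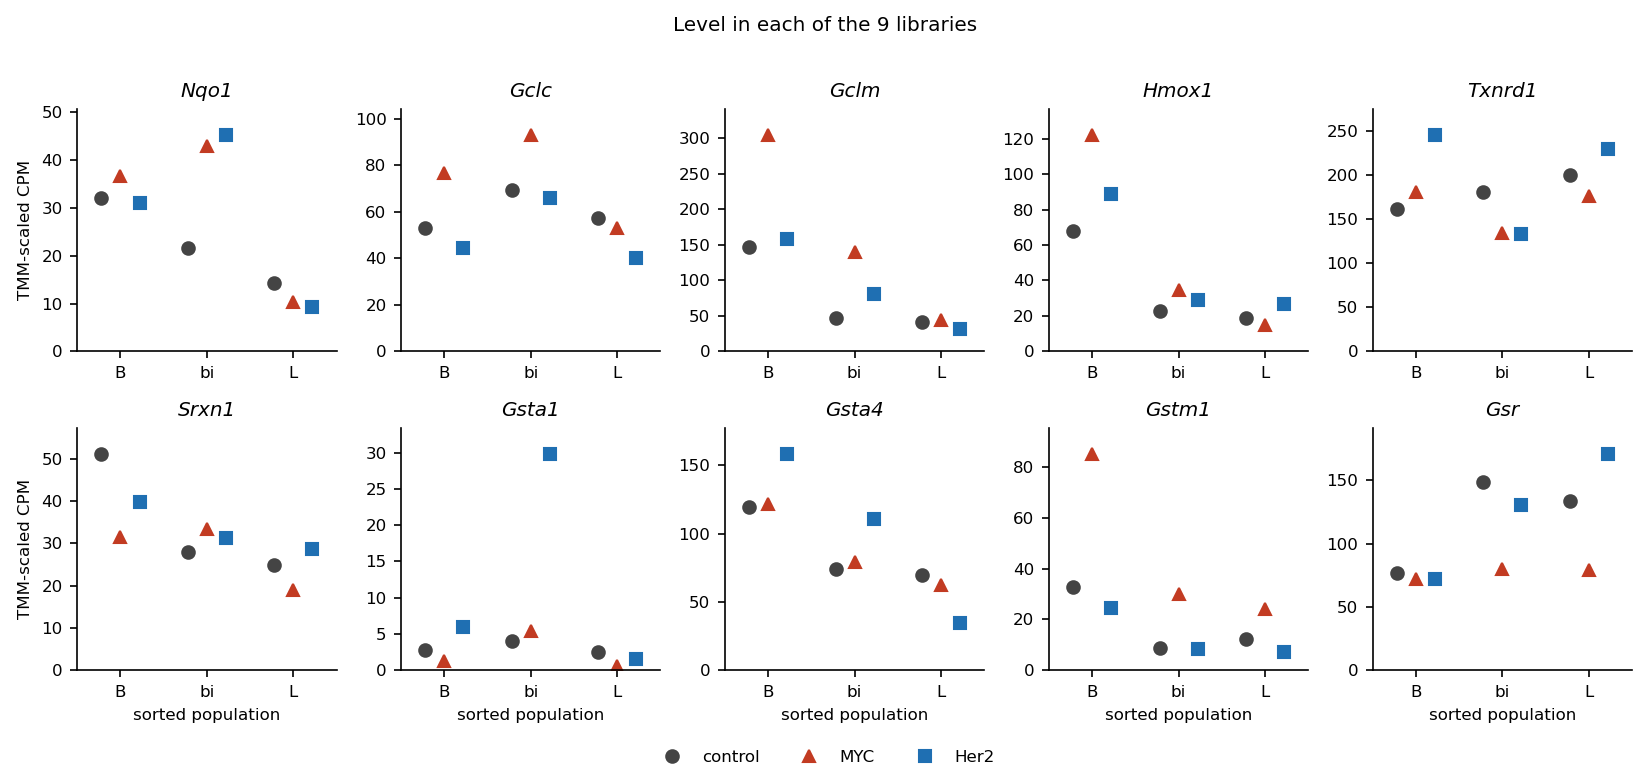
TMM-scaled CPM of the 10 genes, 1 panel per gene, by sorted population (x axis), with 1 point per library and the arm by marker. Gclm, Hmox1, Gstm1 and Gsta4 are highest in the B libraries, Gsr is lowest there, and Gsta1 has a single high point in bi Her2 at 29.85 CPM.

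More members passed the test between the B and L populations than in any of the other 5 comparisons. Of the 10 genes, 6 were lower in L than in B (Nqo1, Gclm, Hmox1, Srxn1, Gsta4 and Gstm1) and 1, Gsr, was higher, while Gclc, Txnrd1 and Gsta1 did not pass the test. Over all tested genes 9.26% were lower and 11.5% higher, 20.8% in all. The median log2 fold change of the 10 genes was -1.10, against 0.04 for all genes tested.

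Gclm encodes the modifier subunit of glutamate-cysteine ligase, the enzyme of the rate-limiting step of glutathione synthesis. It stood at 147, 304 and 158 CPM in B (control, MYC and Her2, the order used throughout), at 42.1, 44.45 and 31.7 in L, and at 47.55, 139.7 and 80.3 in bi. Every B library was above every L library, and bi MYC came close to B control. The mean of L was 39.4 ± 6.78 CPM against 202.9 ± 87.5 in B (SD, n = 3), a log2 fold change of -2.26 (SE 0.27, adjusted p = 0.000322). It was also lower in bi than in B (-1.21, SE 0.26, adjusted p = 0.0135), a call that was lost without B MYC (adjusted p = 0.0657) or without bi control (0.0542).

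Gclc encodes the catalytic subunit of the same ligase and did not pass the test in any comparison. Its levels were 52.9, 76.8 and 44.6 CPM in B, 57.5, 53.0 and 40.1 in L and 69.4, 92.9 and 66.0 in bi. The 3 populations overlapped, with bi highest in each arm. The fold changes were -0.18 for L against B (adjusted p = 0.535) and 0.41 for bi against B (adjusted p = 0.174). The difference between the 2 subunits in their response was not tested.

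Hmox1, the inducible haem oxygenase, was at 67.7, 122 and 89.0 CPM in B, at 18.9, 15.05 and 26.75 in L and at 23.02, 34.8 and 29.0 in bi. The B libraries lay above all 6 others. Against B, Hmox1 was lower in L, with -2.17 (SE 0.26, adjusted p = 0.00034), and lower in bi (-1.67, SE 0.25, adjusted p = 0.00239). Macrophages are a known source of haem oxygenase: the 6 macrophage markers summed to 2.88 to 9.76 CPM in B, 4.47 to 10.5 in L and 3.47 to 6.60 in bi, with Marco at 0 reads in all 9 libraries and Adgre1 in 8. In each arm the sum was lower in B than in L, and lower in B than in bi except with Her2 (9.76 against 6.46 CPM). The part of these markers in the Hmox1 values was not tested. Of the 3 erythroid markers at most 2 had reads in any library, with a sum of at most 0.0650 CPM.

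Nqo1, a quinone reductase that spends NADPH, was at 32.1, 36.7 and 30.9 CPM in B, at 14.3, 10.3 and 9.29 in L and at 21.6, 42.8 and 45.1 in bi. The L libraries were lowest in every arm. Their mean was 11.3 ± 2.66 CPM against 33.2 ± 3.07 in B (SD, n = 3), a log2 fold change of -1.54 (SE 0.29, adjusted p = 0.00489). The bi libraries bracketed those of B, with a mean of 36.5 ± 13.0 (fold change 0.12, adjusted p = 0.851), and bi control alone lay below the 3 B libraries.

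Srxn1 encodes sulfiredoxin, which restores overoxidised peroxiredoxins. Its levels were 51.2, 31.4 and 39.7 CPM in B, 24.95, 18.9 and 28.7 in L and 28.0, 33.5 and 31.2 in bi. B and L did not overlap, and bi overlapped both. The difference of L from B was -0.75 (SE 0.21, adjusted p = 0.0322), and the call was lost without B control (adjusted p = 0.0802), B Her2 (0.0547), L control (0.134) or L MYC (0.136), and without the whole control (0.147) or MYC arm (0.103).

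Txnrd1, the cytosolic thioredoxin reductase, varied least. It stood at 161, 181 and 245 CPM in B, 200.4, 176 and 229.7 in L and 180.2, 134.5 and 133 in bi. The populations overlapped. The fold changes against B were 0.05 in L (adjusted p = 0.906) and -0.38 in bi (adjusted p = 0.285).

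Gsr, glutathione reductase, recycles oxidised glutathione and was the member that rose. It was at 76.75, 71.8 and 71.8 CPM in B, at 133, 78.95 and 171 in L and at 148, 79.8 and 130.4 in bi. All 3 B libraries and the MYC libraries of L and bi lay within a narrow band, and the control and Her2 libraries of L and bi stood above it, so that B did not overlap L or bi. Gsr was higher in L than in B (0.72, SE 0.22, adjusted p = 0.0461). The call was lost with the size factors of DESeq2 (0.0685) and in DESeq2 itself (0.0536). It was also lost without B control (0.132), B Her2 (0.215), L control (0.109), L Her2 (0.182), bi control (0.054), bi MYC (0.0578) or bi Her2 (0.0578), and without the control (0.145) or Her2 arm (0.238). For bi against B the fold change was 0.64 (adjusted p = 0.0944), and all 3 arms were higher. This value passed with TPM (0.046), library totals (0.0315) or no filter (0.0466), and without B MYC (0.0324) or the MYC arm (0.0462).

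Of the transferases, Gsta4 handles 4-hydroxynonenal and other products of lipid peroxidation. It was at 119, 122 and 158 CPM in B, at 69.6, 62.3 and 34.5 in L and at 74.1, 79.2 and 110.4 in bi. Each B library was above each bi and L library. Gsta4 was lower in L than in B (-1.25, SE 0.29, adjusted p = 0.0128) and stood at -0.60 in bi against B (adjusted p = 0.214). Without L Her2 the latter passed the test at nearly the same size (-0.59, adjusted p = 0.0377).

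Gstm1, a mu-class transferase, was at 32.9, 85.3 and 24.6 CPM in B, at 12.1, 24.0 and 7.15 in L and at 8.56, 30.2 and 8.50 in bi. In each arm the B library was highest, and in each population the MYC library was highest. B did not overlap L, while bi MYC lay above B Her2. Gstm1 fell from B to L (-1.68, SE 0.20, adjusted p = 0.000351) and from B to bi (-1.65, SE 0.20, adjusted p = 0.00073). L and bi differed by 0.03 (adjusted p = 1).

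Gsta1, an alpha-class transferase, was the least abundant member and the most uneven. It stood at 2.77, 1.19 and 5.96 CPM in B, at 2.46, 0.5075 and 1.54 in L and at 4.085, 5.46 and 29.85 in bi. The bi Her2 library, with 2606 reads, stood well above the other 8. In the B, L and bi control libraries the counts were 156, 189 and 383 reads. Gsta1 was higher in bi than in B (1.89, SE 0.54, adjusted p = 0.0479). Without bi Her2 the fold change was 1.28 (adjusted p = 0.271), and the call was also lost without B control (0.112), B MYC (0.144), B Her2 (0.137), L MYC (0.0524) or bi MYC (0.171), without the MYC (0.132) or Her2 arm (0.167), with library totals (0.0558) and with TPM (0.155). The liver markers Alb, Apoa1 and Ttr, of a tissue rich in alpha-class transferases, summed to at most 0.161 CPM in any library.

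Gsta1 reads cannot be fully assigned. Of its 31-base sequences, 92.9% also occur in transcripts of another gene, 80.3% in Gm3776, so the authors' counting could split them. The reads given to Gm3776 were also highest in bi Her2, at 11.1 CPM, against 0 to 2.13 in the other 8 libraries. With the reads of Gsta1, Gsta2 and Gm3776 summed, bi against B was 2.03 (adjusted p = 0.0375). For Gstm1 the shared portion was 28.8%, of which most (22.6% of all) is with the pseudogene Gstm2-ps1, which had no reads. For Gclm it was 5.61%, for Srxn1 0.0703%, and for the other 6 members 0.

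The comparison of bi with B shares its B libraries with that of L with B, so the 2 are not independent. In bi, 3 of the 10 genes were lower than in B (Gclm, Hmox1 and Gstm1) and 1 was higher (Gsta1). Over all tested genes 5.11% were lower and 7.88% higher, 13% in all. The median of the members was -0.37, against 0.03 for all genes.

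Between the 2 EpCAM-high populations, Nqo1 was the only member past the threshold, higher in bi (1.66, SE 0.30, adjusted p = 0.043), where 0.751% of all tested genes passed and 0.495% were higher. The bi libraries exceeded the L libraries by log2 ratios of 0.59 in control, 2.06 in MYC and 2.28 in Her2, 1 library against 1. The call was lost without B control (adjusted p = 0.0866), B MYC (0.0536), L MYC (0.196), L Her2 (0.196), bi MYC (0.18) or bi Her2 (0.184), and without the MYC (0.158) or Her2 arm (0.212). It was also lost with library totals (0.0625) and with TPM (0.158). Gclm (1.05, adjusted p = 0.14) and Gsta1 (2.83, adjusted p = 0.0757) did not pass in edgeR and did in DESeq2 (adjusted p = 0.0159 and 1.14e-07). In edgeR both passed with no filter (0.00896 and 0.000193) and without L control (0.0424 and 0.0162) or the control arm (0.0358 and 0.0114). Gsta1 also passed without bi control (0.0119). Of the 10 genes 7 were higher in bi in all 3 arms, against 16.3% of all tested genes.

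**Figure D2:**
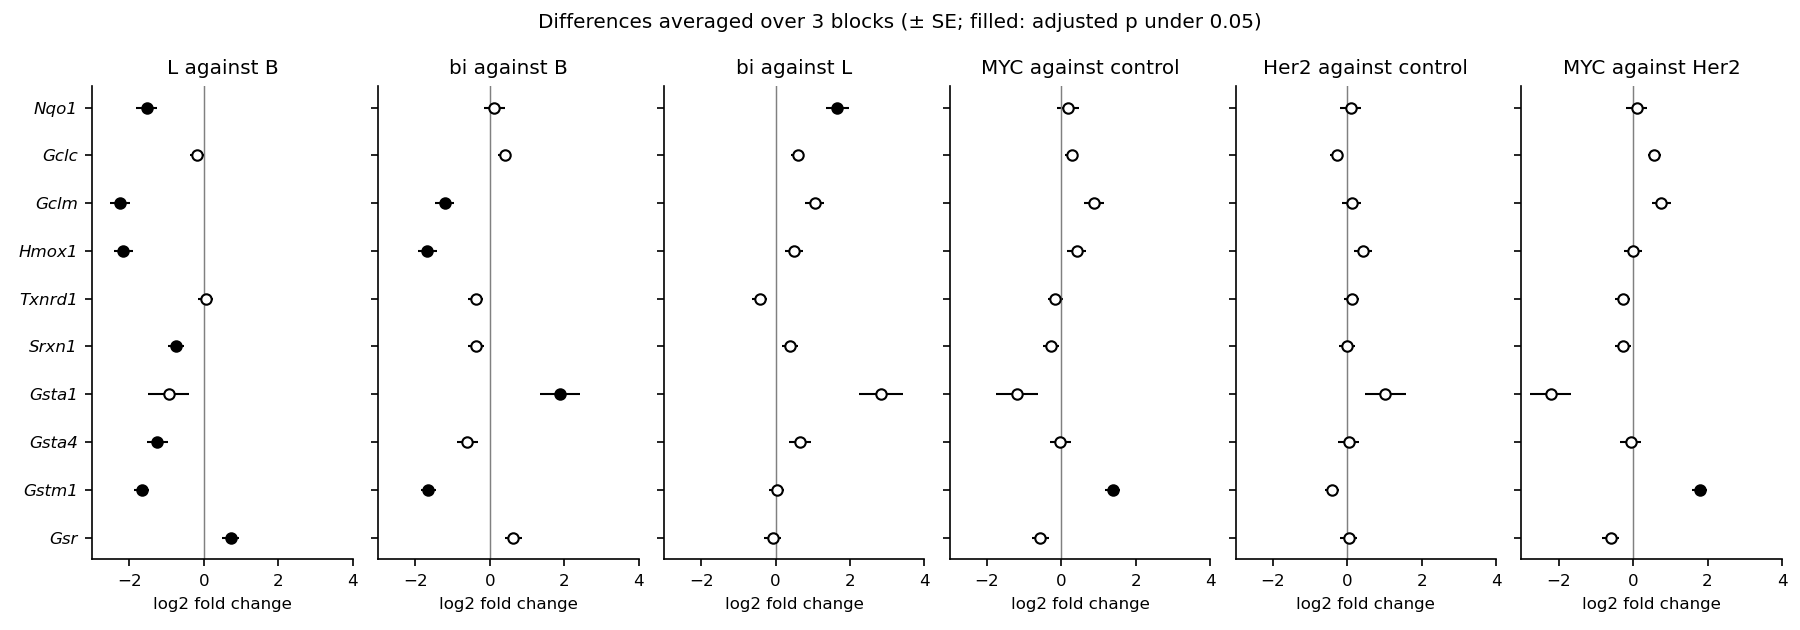
Log2 fold change with its SE for each of the 10 genes in the 6 comparisons, 3 libraries against 3; filled points passed an adjusted p under 0.05. In L against B, 6 genes lie below 0 as filled points, from -2.26 for Gclm to -0.75 for Srxn1, and Gsr lies above 0.

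Of the genes that control the pathway, Nfe2l2 itself was at 117, 158 and 189 CPM in B, at 94.4, 68.8 and 106 in L and at 106, 121 and 134.5 in bi. In each arm L was lowest. Nfe2l2 was lower in L than in B (-0.77, SE 0.19, adjusted p = 0.019), and its value for bi against B was -0.35 (adjusted p = 0.295). The call in L was lost without B MYC, L MYC or the MYC arm.

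Keap1, which encodes the repressor, was at 49.2, 60.9 and 44.4 CPM in B, at 56.0, 47.9 and 53.1 in L and at 57.0, 60.8 and 43.6 in bi. The populations overlapped (L against B 0.04, adjusted p = 0.915). Bach1 was at 76.4, 79.3 and 43.0 CPM in B, at 49.2, 54.4 and 50.7 in L and at 44.5, 62.7 and 44.1 in bi, also overlapping (L against B -0.32, adjusted p = 0.325). Of the 12 regulators tested, 1 rose and 1 fell in L against B and likewise in bi against B, beside shares over all tested genes of 11.5% and 9.26% in L and 7.88% and 5.11% in bi. The number that fell in L was 3 without B control or bi Her2 and with library totals, no filter, DESeq2 or TPM. In bi it was 3 with no filter or DESeq2, and 2 without B control or B Her2 and with library totals or the size factors of DESeq2. The riser was Mafg, a small MAF partner, in both (1.25, adjusted p = 0.00167, and 1.28, adjusted p = 0.00265). The faller in bi was Maff (-1.38, adjusted p = 0.0401), another small MAF gene, a call lost without bi MYC, bi Her2 or the control or MYC arm. Transcript levels do not measure the NRF2 protein.

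Further NRF2 targets were counted from a list of 21, all tested. In L against B 10 fell and 1 rose, with a median of -0.52, where 9.26% of all tested genes fell and 11.5% rose. The largest falls were Slc48a1, a haem transporter gene (-2.91, adjusted p = 2.37e-05; mean 26.7 CPM against 207.5), and Cbr3, a carbonyl reductase gene (-1.73, adjusted p = 0.0016). The others that fell were the pentose phosphate genes G6pdx and Pgd, the ferritin heavy chain gene Fth1, the efflux pump genes Abcc1 and Abcc4, and Ugdh, Ephx1 and Blvrb. The number that fell was 5 without B Her2 or L MYC, 6 without B MYC or L Her2, and 4 and 6 without the MYC and Her2 arms.

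The riser was Gpx2, a glutathione peroxidase of epithelia, the largest change of the list. It was at 0.852, 0.229 and 0.0575 CPM in B, at 290.2, 228 and 168 in L and at 248.5, 282 and 134 in bi. The 3 B libraries lay far below the 6 others. Gpx2 rose by 9.39 in L (SE 0.52, adjusted p = 5.62e-06) and by 9.31 in bi (SE 0.52, adjusted p = 6.98e-06). In bi against B, where 5.11% of all tested genes fell, 5 of the 21 targets fell, led by Slc48a1 (-2.02, adjusted p = 0.000295) and Blvrb (-1.09, adjusted p = 0.039). That number was 2 without B Her2, bi control, bi Her2 or the Her2 arm, and 3 without B MYC, bi MYC or the control or MYC arm.

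Among further glutathione transferases, 24 were listed, 23 matched a symbol and 20 were tested. In L against B, where 9.26% of all tested genes fell and 11.5% rose, 5 fell and 1 rose. The mu-class genes Gstm6 (-3.85, adjusted p = 0.000224) and Gstm2 (-2.76, adjusted p = 2.59e-05) fell most, with Gstp2, Gstz1 and Mgst2, and Gsta3 rose (3.35, adjusted p = 0.00766). Gstm6 was low throughout, at 0.0586 to 2.90 CPM. In bi against B 5 fell and 2 rose, beside 5.11% and 7.88% of all tested genes. Gstm6 (-2.13, adjusted p = 0.0061), Gstm2 (-1.90, adjusted p = 0.000353), Gstt1, Mgst1 and Mgst2 fell, and Gsta3 (4.34, adjusted p = 0.00406) and Gsta2 (2.63, adjusted p = 0.0306) rose. The Gsta2 counts, 4 to 67 reads a library, share 60.7% of their 31-base sequences with other genes. The number that fell in bi was 3 without B MYC, B Her2, bi control, bi Her2 or the control or Her2 arm. The number that rose was 1 without B control, B Her2, bi MYC, bi Her2 or the control or Her2 arm, and with TPM.

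Gstm2, a neighbour of Gstm1 in the mu class, was at 59.9, 99.7 and 27.2 CPM in B, at 8.11, 12.03 and 5.47 in L and at 12.5, 26.2 and 9.70 in bi. As for Gstm1, the B library was highest in each arm and the MYC library in each population.

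In the glutathione cycle, 14 of 16 listed genes were tested. Over all tested genes 9.26% fell and 11.5% rose in L against B, and 5.11% fell and 7.88% rose in bi against B. In L against B 6 fell and none rose: Oplah, which encodes 5-oxoprolinase (-2.99, adjusted p = 0.000301), the gamma-glutamyl transferase gene Ggt5 (-1.86, adjusted p = 0.0278), Ggct, Gss, Gpx1 and Gpx4. The number was 2 without B MYC, L control, L MYC or the MYC arm, 3 without B control or the control arm, and 4 without B Her2, L Her2 or the Her2 arm. In bi against B 3 fell, Oplah (-2.05, adjusted p = 0.00387), Gpx4 (-0.98, adjusted p = 0.0219) and Glrx, and 1 fell without B MYC, bi MYC, bi Her2 or the MYC arm. Of 12 thioredoxin and peroxiredoxin genes, 1 fell in both comparisons, close to the shares over all genes. It was Txnip, whose product binds thioredoxin (-1.52, adjusted p = 0.0253, in L and -1.58, adjusted p = 0.0337, in bi). None fell in either comparison without B MYC or B Her2, in L without L MYC or L Her2, or in bi without bi MYC, bi Her2 or the Her2 arm, and without B control 4 fell in L and 3 in bi.

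**Figure D3:**
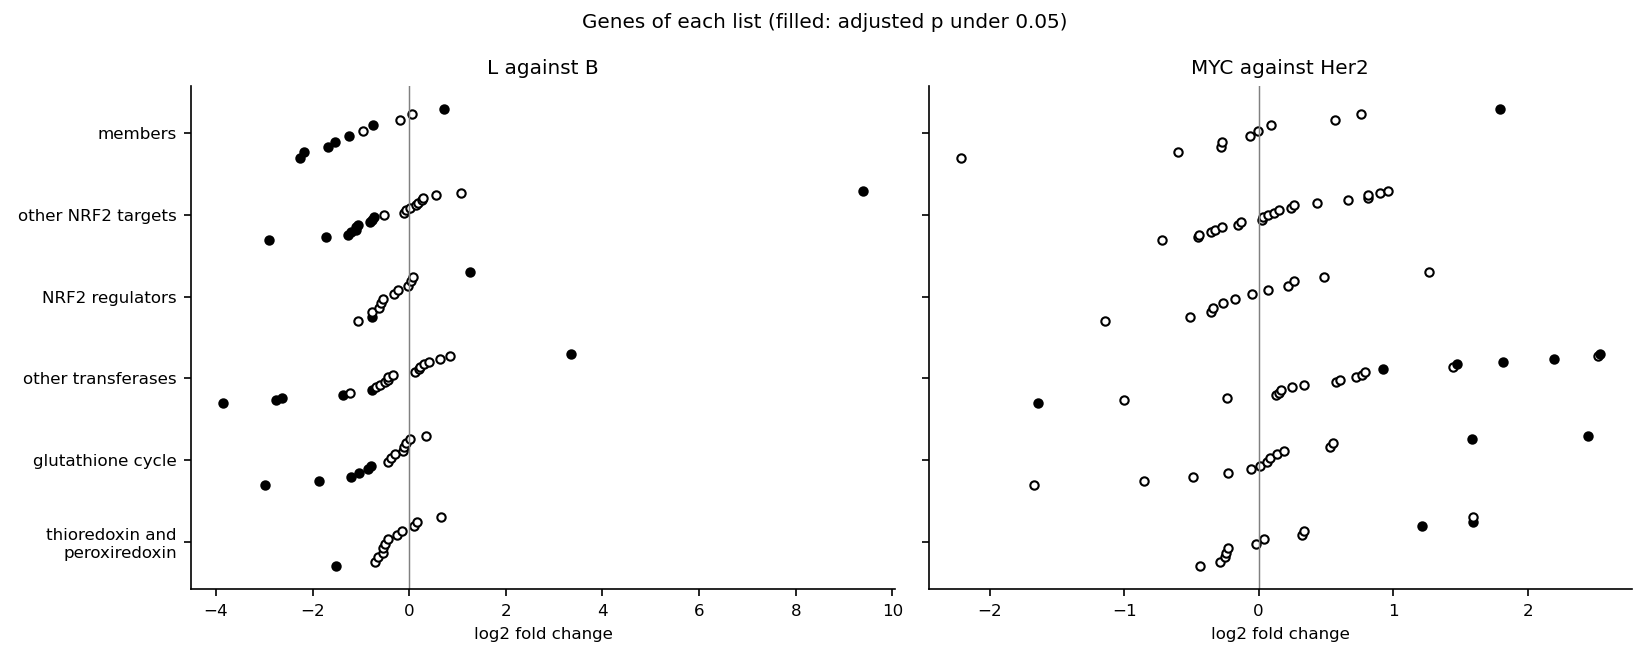
Log2 fold change of every tested gene in 6 lists (the members, the regulators and 4 pathway lists), L against B and MYC against Her2, filled where the adjusted p was under 0.05. In L against B most filled points lie below 0 and Gpx2 stands alone at 9.39. In MYC against Her2 the filled points above 0 are 1 member (Gstm1), 5 further transferases, 2 cycle genes and 2 thioredoxin genes.

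In bi against L none of the genes on these 5 lists passed the test in the reported edgeR fit. With no filter 2 transferases and 1 target were higher, where 698 genes were called over all. With library totals 1 target was higher. Unadjusted p-values under 0.05 were held by 0 of the 12 regulators, 3 of the 21 targets, 4 of the 20 transferases, 5 of the 14 cycle genes and 1 of the 12 thioredoxin genes. DESeq2 called 2 targets and 2 transferases higher in bi and no gene of the other lists. Over all 23834 tested genes DESeq2 called 664, in either direction. The share of all tested genes with such an unadjusted p was not counted. The smallest p of each list belonged to Nfe2l2 (0.43, adjusted p = 0.587), Slc48a1 (0.89, adjusted p = 0.116), Gstm2 (0.86, adjusted p = 0.118), Gss (0.63, adjusted p = 0.287) and Sesn1 (0.50, adjusted p = 0.401).

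MYC-transduced cells were compared with control cells as the average over the 3 populations. Gstm1 rose (log2 fold change 1.38, SE 0.20, adjusted p = 0.029) and was the only member past the threshold, where 0.365% of all tested genes passed and 0.101% were higher. Its mean was 46.5 CPM in the MYC libraries and 17.9 in the controls. Within populations the log2 ratio of MYC to control was 1.37 for B, 0.98 for L and 1.82 for bi, 1 library against 1. The call was lost without B control (adjusted p = 0.0538), B MYC (0.0569), L MYC (0.0744), bi control (0.199) or bi MYC (0.263), and without population L (0.0619) or bi (0.317). The fold change stayed between 1.17 and 1.59 in all 18 alternatives.

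Gclm had the next largest positive value, 0.87 (SE 0.26, adjusted p = 0.156), and passed with no filter on low counts (0.84, adjusted p = 0.0477). The 3 populations differed: the ratio was 1.05 in B and 1.55 in bi, where the levels went from 147 to 304 and from 47.55 to 139.7 CPM, and 0.08 in L (42.1 to 44.45 CPM). Nqo1 likewise had 0.19 in B, 0.99 in bi and -0.48 in L, and Hmox1 0.85, 0.60 and -0.33. These differences between populations have 1 library per value and no test.

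Gsr was lower with MYC in all 3 populations, by log2 ratios of -0.10 in B, -0.89 in bi and -0.76 in L. Averaged over them it was at -0.57 (SE 0.22, adjusted p = 0.285), and without population B it passed the test (-0.86, adjusted p = 0.046). Gsta1 was at -1.20 (adjusted p = 0.378), with -1.20 in B, -2.21 in L and 0.42 in bi. Gclc (0.28), Txnrd1 (-0.16), Srxn1 (-0.28) and Gsta4 (-0.03) stayed closer to 0.

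A log2 ratio above 1 for MYC over control was held by 2 of the 10 genes in B, Gclm and Gstm1, by the same 2 in bi and by none in L. Over all tested genes the shares were 4.43% in B, 8.86% in bi and 7.65% in L. A ratio below -1 was held by Gsta1 in B and in L, against 11.7% and 3.84% of all genes.

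**Figure D4:**
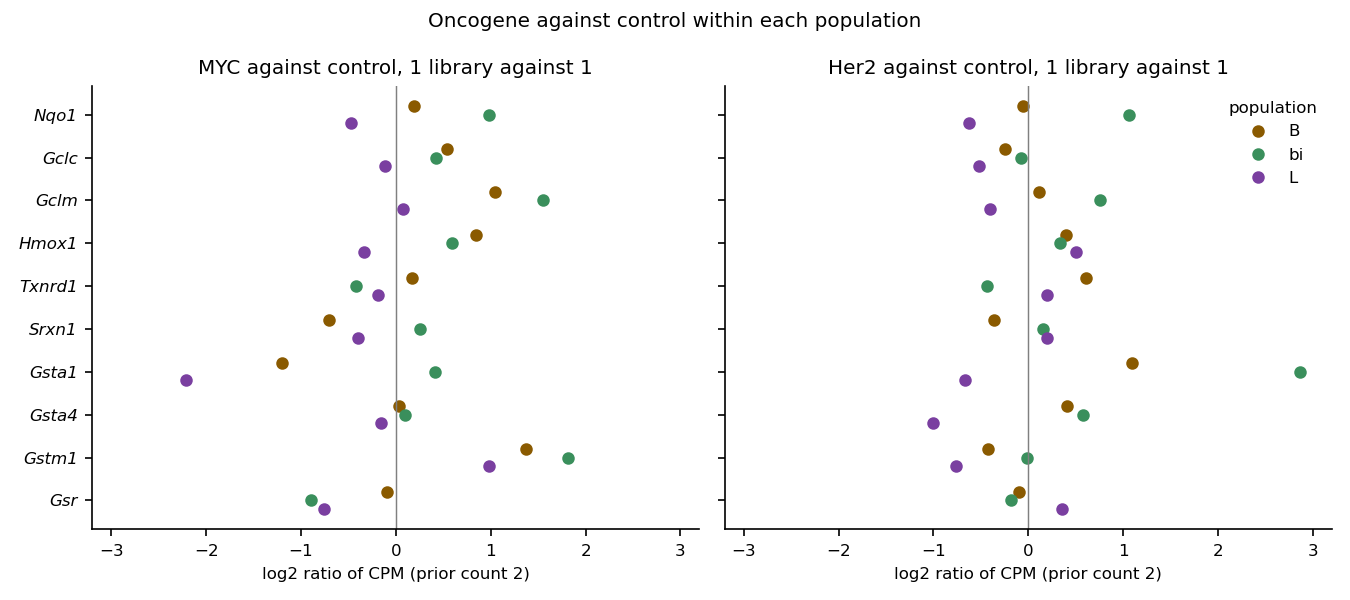
Log2 ratio of CPM, with a prior count of 2, of MYC over control and of Her2 over control within each population, 1 library against 1, for the 10 genes. Gstm1 lies near or above 1 in all 3 populations with MYC, and Gsta1 ranges from -2.21 to 0.42 with MYC and from -0.66 to 2.86 with Her2.

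For Her2 against control no member passed the test in edgeR or DESeq2, and none had an unadjusted p under 0.05. Over all genes tested 0.021% passed. The largest value was that of Gsta1 (1.02, SE 0.55, adjusted p = 0.71), from ratios of 1.10 in B, -0.66 in L and 2.86 in bi. Gstm1 was lower in all 3 populations (-0.41, adjusted p = 0.614), as was Gclc (-0.28, adjusted p = 0.776), and Hmox1 was higher in all 3 (0.41, adjusted p = 0.753). The summed level of the 6 macrophage markers was also higher in the Her2 library than in the control of each population, at 9.76 against 2.88 CPM in B, 10.5 against 4.47 in L and 6.46 against 3.47 in bi, and its part in the Hmox1 values was not tested. Of the 6 markers 4 passed the filter on low counts, and 3 of these were higher in all 3 populations. From control to Her2 the mean went from 2.40 to 6.40 CPM for Cd68 and from 0.125 to 1.29 for Mrc1. For Csf1r it went from 0.398 to 0.498 and for Ptprc from 0.679 to 0.705.

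In bi, Nqo1 stood at 45.1 CPM with Her2 and 21.6 in the control, a log2 ratio of 1.06, against -0.06 in B and -0.62 in L. Gsta4 had ratios of 0.41 in B, 0.57 in bi and -1.01 in L, where its level went from 69.6 to 34.5 CPM. Of the 10 genes, 2 in bi (Nqo1 and Gsta1) and 1 in B (Gsta1) had a ratio above 1, against 9.62% and 5.22% of all tested genes. In L, 1 (Gsta4) had a ratio below -1, against 6.17%.

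In MYC against Her2, the 2 oncogene arms differed for Gstm1, higher with MYC by 1.79 (SE 0.20, adjusted p = 0.00407), with a mean of 46.5 against 13.4 CPM. This was 1 of 10 members, where 4.57% of all tested genes passed and 2.44% were higher. The call held in all 18 alternatives, with fold changes of 1.64 to 1.90. Gsta1 was at -2.21 (SE 0.54, adjusted p = 0.0513), lower with MYC in all 3 populations. It passed in DESeq2 (-2.23, adjusted p = 5.02e-05), with the size factors of DESeq2 (0.0442), with no filter (0.000502) and with its close copies summed (-2.25, adjusted p = 0.0497). It also passed without L control (adjusted p = 0.0161), L Her2 (0.0441), bi control (0.0119) or population L (0.0391). Gclc (0.56, adjusted p = 0.108) and Gclm (0.76, adjusted p = 0.133) were higher with MYC in all 3 populations without passing. Gsr was at -0.60 (adjusted p = 0.173) and passed without population B (-0.996, adjusted p = 0.0192).

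Other transferases differed between the 2 oncogenes too. Of the 20 tested, 5 were higher with MYC and 1 was lower, with a median of 0.66 against 0.02 for all genes. Over all tested genes 4.57% passed and 2.44% were higher with MYC. Mgst1, a membrane-bound transferase gene, was at 84.1, 173 and 62.0 CPM in B, at 87.0, 148 and 34.0 in L and at 53.4, 117 and 31.6 in bi. In every population MYC was highest and Her2 lowest, and the fold change was 1.82 (SE 0.20, adjusted p = 0.00397).

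Gstt1, a theta-class gene, was at 7.02, 8.78 and 4.28 CPM in B, at 2.42, 8.49 and 1.27 in L and at 1.34, 7.27 and 0.584 in bi. The MYC libraries were alike in the 3 populations while the others spread, and the fold change was 2.54 (SE 0.46, adjusted p = 0.018). Gstm6 (2.19, adjusted p = 0.0203), Gstm2 (1.48, adjusted p = 0.00687) and Gstt3 (0.93, adjusted p = 0.0276) were also higher. Gsto2, of the omega class, was lower (-1.64, adjusted p = 0.0196). The number of transferases that were higher was 2 without L Her2, bi MYC or population L or bi, 3 without L MYC or bi Her2, 9 without B Her2 or population B, and 3 with TPM.

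Against control, 12 of the 20 transferases were higher with MYC in all 3 populations, against 20.3% of all tested genes, with a median of 0.53. None passed in the reported edgeR fit, 10 had an unadjusted p under 0.05, and DESeq2 called 6 higher. In edgeR 5 of 23 were higher with no filter, 2 without B Her2 or population B, and 1 without B MYC. The smallest p was that of Mgst1 (0.97, SE 0.20, adjusted p = 0.0675). With Her2 against control none passed in the reported edgeR fit, 5 had an unadjusted p under 0.05 and DESeq2 called 1 higher and 1 lower. In edgeR with no filter 1 was lower. The smallest p was again that of Mgst1, in the other direction (-0.85, adjusted p = 0.156). For neither comparison was the share of all tested genes with an unadjusted p under 0.05 counted. In both, DESeq2 also called more genes than edgeR over all genes, so these counts have no background beside them.

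**Figure D5:**
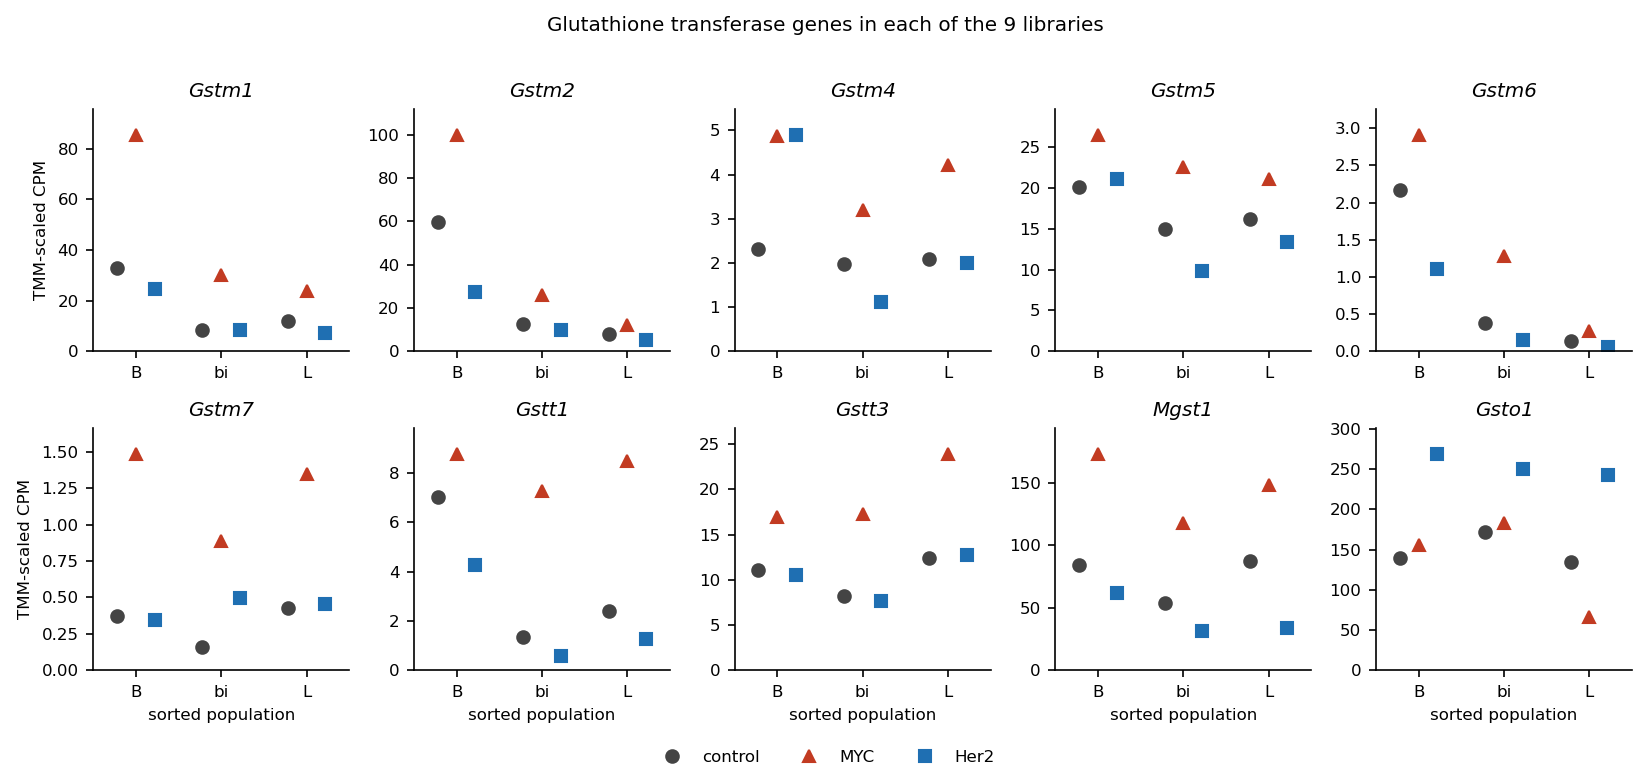
TMM-scaled CPM of 10 glutathione transferase genes in each of the 9 libraries, by sorted population and with the arm by marker; Gstm4, Gstm5, Gstm7 and Gsto1 did not pass the test in MYC against Her2. The MYC library is the highest of its population for Gstm1, Gstm2, Gstt1, Gstt3 and Mgst1 in all 3 populations.

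In MYC against Her2, where 2.44% of all tested genes were higher with MYC, 2 of 14 cycle genes were higher, Ggt5 (2.44, adjusted p = 0.0304) and Oplah (1.58, adjusted p = 0.03), and 2 of 12 thioredoxin genes, Sesn3 (1.59, adjusted p = 0.00605) and Sesn1 (1.21, adjusted p = 0.0101), which encode sestrins. No cycle gene was higher with TPM or without L Her2, bi MYC or bi Her2, and 1 without B Her2, L MYC or population L or bi. The thioredoxin list had 1 gene higher without L Her2, bi MYC or population L. None of the regulators or further targets passed in the reported edgeR fit, and 4 of 12 and 5 of 21 had an unadjusted p under 0.05. With no filter 1 regulator and 1 target were higher and 1 of each lower, where 2089 genes were called over all. Without B control 1 regulator and 1 target were higher and 1 target lower. Without population B 2 targets were higher and 1 regulator lower. Without B Her2 1 target was higher, and with library totals 1 target was lower. DESeq2 called 1 regulator higher, 1 regulator lower and 1 target higher. Over all 23834 tested genes DESeq2 called 1874, in either direction. No share over all tested genes was counted for the unadjusted p.

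Against control neither oncogene moved any gene of these 4 lists past the threshold in the reported edgeR fit. With MYC the numbers with an unadjusted p under 0.05 were 2 of 12 regulators, 2 of 21 targets, 4 of 14 cycle genes and 3 of 12 thioredoxin genes, and DESeq2 called 1 cycle gene higher. The smallest p of each belonged to Bach2 (0.94, adjusted p = 0.339), Blvrb (0.92, adjusted p = 0.185), Oplah (1.69, adjusted p = 0.0656) and Sesn3 (0.67, adjusted p = 0.167). With Her2 the numbers were 2, 3, 2 and 2, and DESeq2 called 1 regulator higher, 1 target higher and 1 lower, and 2 thioredoxin genes lower. The smallest p belonged to Maff (1.18, adjusted p = 0.33), Abcc4 (0.92, adjusted p = 0.174), Chac1 (2.11, adjusted p = 0.301) and Sesn1 (-0.87, adjusted p = 0.129). With MYC in edgeR, 1 cycle gene was higher with no filter and without B Her2, L control or population L. Without population B 1 regulator was higher with MYC. With TPM 1 target and 1 thioredoxin gene were lower with MYC. With Her2 and no filter, 1 regulator, 1 target and 1 cycle gene were higher, and 1 target and 1 thioredoxin gene lower. The cycle list also had 1 gene higher with Her2 without bi Her2 or population bi. As for the transferases, the counts by unadjusted p, by DESeq2 and under the alternatives have no share over all tested genes beside them.

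The pattern of each member over the 9 libraries was compared with that of 10172 genes of at least 5 CPM, by the root mean square (RMS) difference of log2 CPM after centring each gene on its mean. Closest to Nqo1 were Gli2 (0.31), Whrn (0.36) and Ly6e (0.41). Closest to Hmox1 were Ampd3 (0.25), Plekho2 (0.27) and Il6ra (0.28). Closest to Gstm1 were Phyh (0.23), Vwa5a (0.23) and Osmr (0.30).

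The members were not each other's closest neighbours. The closest pair was Gclm and Hmox1, with an RMS difference of 0.47. Hmox1 was number 41 in the order of genes near Gclm, and Gclm number 105 near Hmox1. Next were Txnrd1 and Srxn1 (0.49) and then Srxn1 and Gsta4 and Nqo1 and Gsta4 (0.50 each). Genes that vary little lie close to many genes by this measure. Srxn1 was number 6957 near Txnrd1, and Txnrd1 was number 5448 and Gsta4 number 5611 near Srxn1. Srxn1 was number 867 near Gsta4. Gsta4 was number 29 near Nqo1, and Nqo1 was number 876 near Gsta4. The best place was that of Nqo1, number 6 near Gsta1, at an RMS difference of 1.17. The 9 libraries share the 3 populations and 3 arms, so these values describe the pattern and are not a test.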

How the data were processed

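Per the file headers, the authors' deposited gene tables hold 1 estimated count (an expected number of reads), 1 TPM value, 1 length and 1 effective length per gene. The submitters' processing notes name Salmon 0.9.1 and the genome build mm10. The annotation release and other settings are not given in the sources used here, and the labels' protocols name a stranded ribosomal-RNA depletion kit while the molecule label reads polyA RNA. Deposited TPM uses lengths weighted by transcript abundance, so it serves as an alternative to the counts.

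Symbols were joined by Ensembl identifier (53544 with version, 563 without; 174 of 54281 had none). Estimated counts were rounded. Genes were kept by filterByExpr, with the arm as group, at a count of at least 10 and a total of at least 15. Counts were then scaled by TMM and fitted with edgeR 4.0.16 (quasi-likelihood, R 4.3.3) on all 9 libraries as population plus arm, with 4 residual degrees of freedom. The residual thus holds the interaction of population and arm. P-values were Benjamini-Hochberg adjusted over 23834 genes. The SE is the size of a fold change divided by the square root of F. Ratios of single libraries use a prior count of 2 and have no test. The test was checked on simulated counts.

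Alternatives were the size factors of DESeq2, library totals, no filter, DESeq2 1.42.0, limma 3.58.1 on log2(TPM + 0.5), and leaving out each library, arm or population. Summing close copies was added after seeing the data. Shared sequence was counted as 31-base stretches of GENCODE transcripts. Named were the 10 members, Nfe2l2, Keap1 and Bach1, up to 2 largest rises and 2 largest falls among the called genes of each list (or its smallest p), further called genes without values, and the 3 genes nearest to Nqo1, Hmox1 and Gstm1. The members and lists were chosen with earlier results of these data known.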

Additional observations from a re-analysis of the deposited data

How the results depend on the processing

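Of the 60 values of the 10 genes in 6 comparisons, 14 were called, and 8 of the 14 kept their direction and call in all 18 alternatives: Nqo1, Gclm, Hmox1, Gsta4 and Gstm1 in L against B, Hmox1 and Gstm1 in bi against B, and Gstm1 in MYC against Her2. The 6 calls that were lost under an alternative are given with their values beside each result above, and the cause was not tested. No called value changed sign. Each scaling moved the median of all genes by less than 0.1 on the log2 scale. The levels rest on 46.9 to 98.9 M reads a library, and Gsta1 in L MYC, at 40 reads, is the least certain of them. No paired analysis was possible because the labels carry no replicate numbers to serve as a block, beyond the population and arm blocks that the reported fit already holds.

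The number of genes called over all genes depended on the setting. MYC against control (87 genes) gave 54 with the size factors of DESeq2, 256 with library totals, 944 without a filter, 966 in DESeq2 and 610 with TPM. Her2 against control (5 genes) gave 32, 32, 619, 509 and 0 in the same order. MYC against Her2 (1089 genes) gave 2089 without a filter, 1874 in DESeq2 and 650 with TPM, and bi against L (179 genes) gave 698, 664 and 25. Leaving out a library, arm or population gave 6 (without bi control) to 844 (without population B) for MYC against control, 0 (without L Her2) to 125 (without population bi) for Her2 against control, and 217 (without bi MYC) to 2070 (without population B) for MYC against Her2. The ranges were 2820 to 5328 for L against B, 1843 to 3276 for bi against B and 33 to 241 for bi against L.

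Of the values that were not called, 16 changed sign under at least 1 alternative. In Her2 against control Srxn1 (-0.01) was at 0.0038 with the size factors of DESeq2, 0.014 without a filter and 0.0038 in DESeq2, and with TPM Gsta4 was at -0.11 and Gsr at -0.10. Txnrd1 in L against B was at -0.015 with TPM, and Gstm1 in bi against L at -0.0057 with library totals. Leaving out a library, arm or population gave these ranges. In Her2 against control they were -0.35 to 0.49 for Nqo1, -0.18 to 0.49 for Gclm, -0.069 to 0.40 for Txnrd1, -0.18 to 0.23 for Srxn1, -0.26 to 0.51 for Gsta4 and -0.14 to 0.20 for Gsr. In MYC against control they were -0.20 to 0.57 for Nqo1, -0.37 to 0.059 for Txnrd1 and -0.20 to 0.29 for Gsta4, and in MYC against Her2 -0.17 to 0.40 for Nqo1, -0.34 to 0.36 for Hmox1 and -0.54 to 0.21 for Gsta4. Between populations they were -0.13 to 0.22 for Txnrd1 in L against B, -0.17 to 0.48 for Nqo1 in bi against B, and -0.13 to 0.29 for Gstm1 and -0.24 to 0.13 for Gsr in bi against L.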
